A study of Mus musculus with 6 samples.

Results

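The genes described here encode the secreted and membrane-bound proteases that cut the extracellular matrix, together with their inhibitors: the matrix metalloproteinases (MMPs), the tissue inhibitors of metalloproteinases (TIMPs) and the ADAMTS proteases. They were chosen by symbol, as every listed gene named Mmp, Timp or Adamts followed by its number, which gave 46 of 23420 genes: 23 MMP, 4 TIMP and 19 ADAMTS genes. RNA of whole embryonic lungs at E11.5 (embryonic day, counted in dpc, days post coitus) was sequenced in 3 control pools of the genotype Rptor f/+; Shh Cre/+ and in 3 mutant pools of the genotype Rptor f/f; Shh Cre/+, each made from 3 or 4 lungs. Rptor encodes Raptor, a component of the kinase complex mTORC1, and the comparison asks which transcripts differ when that complex is removed. All 6 pools carry the same Cre allele at the Shh locus, which is active in the lung epithelium. The mesenchyme of a mutant lung is therefore not a target of the deletion, and the controls, by their sample labels, carry 1 floxed Rptor allele beside the Cre allele. A supplementary heading of the study gives the controls of this stage as Shh Cre/+ without naming a floxed allele, so the sources differ on this point, and the genotype of the labels is used here. Replicates are pools of different embryos, and the p-values below measure the spread between those pools.

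MMPs and ADAMTS proteases are made as inactive precursors that depend on a zinc ion for catalysis. MMPs cut collagens, laminins and other matrix proteins, many ADAMTS proteases cut proteoglycans such as versican or process procollagen, and TIMPs block the active site of MMPs and, for some members, of ADAM and ADAMTS proteases. In branching organs such as the lung, the epithelium grows into a mesenchyme whose matrix is laid down and remodelled at the same time.

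Normalized counts are reads scaled by the size factor of each library, and their totals were 20705058 to 20865998 per pool. Control pool 3 stood apart from the other pools: its score on the first principal component was -45.5, against -12.9 to 24.4 in the other 5 pools, and it was the highest or lowest of the 6 pools for 49.7% of all tested genes. It also had the most Xist, the RNA of the inactive X chromosome (12989, against 4599 and 309 in the other control pools and 41.9 to 466 in mutant pools). Mean Xist was 5966 in control and 223 in mutant pools (log2 fold change -4.16, limma adjusted p = 0.164), although control pool 2 lay within the mutant range. The part of this imbalance between the groups in the members' values was not tested. Results that turn on control pool 3 are given with and without it. Rptor itself had 2126, 2193 and 2279 normalized counts in control pools against 2023, 2137 and 2148 in mutant pools (log2 fold change -0.065, adjusted p = 0.584 by limma). Since Rptor was counted over the whole gene in all cells of the lung, these values check the labels only weakly. The 20 epithelial markers had 19273 to 24067 summed counts in control pools against 15641 to 16740 in mutant pools, with 19 of 20 lower and 7 called lower. The 20 mesenchyme markers had 78156 to 81312 in control pools against 86115 to 87622 in mutant pools, with 17 of 20 higher and 0 called.

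Most matrix protease genes had a clear signal at this stage, and the MMP genes at or near 0 were nearly all neighbours in a single chromosomal cluster. Of 46 genes, 35 reached a value of 1 in 3 or more pools and were tested. The remaining 11 were Mmp1a, Mmp1b, Mmp3, Mmp7, Mmp10, Mmp12, Mmp13, Mmp20, Mmp21, Mmp27 and Adamts13. Of these, 9 belong to a cluster of 10 MMP genes at chr9:7272514-7699585 (GRCm38), which spans 427 kb and holds 0 other protein-coding genes. In their order along the chromosome the 10 genes are Mmp13, Mmp12, Mmp1b, Mmp3, Mmp1a, Mmp10, Mmp8, Mmp27, Mmp20 and Mmp7. They encode interstitial collagenases, stromelysins, the macrophage metalloelastase Mmp12, the enamel protease Mmp20 and matrilysin. The highest value of any of them in any pool was 3.98, for the neutrophil collagenase Mmp8 in control pool 3. Mmp1b, Mmp3, Mmp7, Mmp10 and Mmp20 were at 0 in all 6 pools, which allows up to 3 reads in each library, counting error only. Of the 13 MMP genes outside the cluster, 12 had a mean of at least 10, and the exception was Mmp21, with a highest value of 1.99. Mmp1a and Mmp1b, and likewise Mmp3 and Mmp10, are close copies whose reads may be split or dropped, so their low values are less certain.

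The promoters of the cluster differed in sequence from those of the expressed members. In the RefSeq table of GRCm38.p6, 32 of the 46 genes have a promoter, and the 250 bases before the start were read for each. A promoter was called CpG-rich when its count of CG was at least 0.6 of that expected from its C and G content. The letters TGANTCA, the core of sites bound by AP-1 factors, were searched as well, and since this motif reads the same on both strands 1 search covers both. The 4 promoters printed here are those of Mmp10 and Mmp13, at or near 0 in these lungs, of Mmp14, whose mean count is the highest among members with a promoter in the table, and of Adamts9, which has the highest mean among CpG-rich members whose window holds no annotated exon. They are printed from 5′ to 3′ on the strand of the gene, at chr9:7502092-7502341 (+) for Mmp10, chr9:7272264-7272513 (+) for Mmp13, chr14:54431348-54431597 (+) for Mmp14 and chr6:92943535-92943784 (-) for Adamts9. Capitals mark TGANTCA and each CG, and these motifs do not overlap.
Mmp10: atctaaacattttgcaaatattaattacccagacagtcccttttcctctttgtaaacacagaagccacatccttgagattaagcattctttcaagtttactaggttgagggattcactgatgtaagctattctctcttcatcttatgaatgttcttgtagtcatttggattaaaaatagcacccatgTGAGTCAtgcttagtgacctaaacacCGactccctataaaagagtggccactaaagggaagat
Mmp13: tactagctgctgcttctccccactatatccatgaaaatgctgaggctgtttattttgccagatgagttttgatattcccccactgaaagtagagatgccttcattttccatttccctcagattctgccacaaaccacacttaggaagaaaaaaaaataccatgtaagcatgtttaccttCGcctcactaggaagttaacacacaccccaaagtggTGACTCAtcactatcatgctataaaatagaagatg
Mmp14: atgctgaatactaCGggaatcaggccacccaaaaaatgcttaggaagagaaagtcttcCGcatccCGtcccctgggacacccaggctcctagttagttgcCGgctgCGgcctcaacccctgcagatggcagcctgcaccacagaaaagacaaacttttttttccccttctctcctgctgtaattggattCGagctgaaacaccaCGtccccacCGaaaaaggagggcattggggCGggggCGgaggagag
Adamts9: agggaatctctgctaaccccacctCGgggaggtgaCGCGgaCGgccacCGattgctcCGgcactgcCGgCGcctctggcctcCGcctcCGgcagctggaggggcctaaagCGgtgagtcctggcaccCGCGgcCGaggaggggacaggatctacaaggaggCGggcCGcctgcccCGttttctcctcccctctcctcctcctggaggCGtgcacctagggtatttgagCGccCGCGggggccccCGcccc

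Mmp10 and Mmp13, a stromelysin and a collagenase, have 1 CG each in 250 bases and 1 copy of TGANTCA, which begins 63 bases before the start in Mmp10 and 35 bases before it in Mmp13. Mmp14 has 10 CG and Adamts9 has 22, at 0.53 and 0.70 of the expected count, and neither has TGANTCA. Over the whole cluster, 0 of 10 promoters were CpG-rich, against 34.5% of all 27025 promoters and 7.73% of those of genes with a mean under 5, so the cluster is near other genes of its level in this respect. TGANTCA was held by 7 of 10, against 6.85% of all promoters and 11.1% of those of genes with a mean under 5. Among the 16 members with a mean of at least 100, 9 promoters (56.2%) were CpG-rich, against 72.3% of all genes at that level, and 0 held TGANTCA, against 3.38%. The cluster genes are neighbours and related copies, so these promoters are not independent of one another, and a match to the motif is a description of the letters only.

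**Figure D1:**
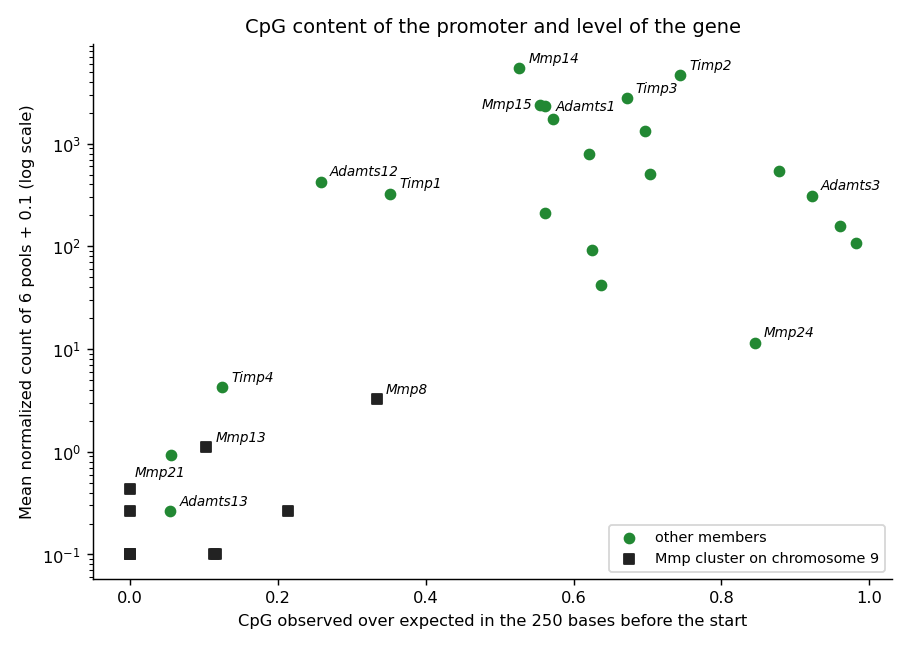
CpG count over that expected in the 250 bases before the start (horizontal axis) and mean normalized count of the 6 pools plus 0.1 on a log scale (vertical axis), for the 32 members with a promoter in the table. The 10 genes of the chromosome 9 cluster (squares) lie at or under 0.33 on the horizontal axis and under 10 on the vertical axis, where Timp4, Mmp21 and Adamts13 also lie.

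Per kb of exons, the leading transcripts were those of a single activation system. Mmp2 (gelatinase A), which digests denatured collagen and basement membrane collagen, had a mean of 2417 normalized counts per kb, which was 52.8% of the MMP sum and the 98.3rd percentile of tested genes. Timp2 followed with 1190 per kb, or 62.7% of the TIMP sum, and Mmp14 with 907 per kb, or 19.8% of the MMP sum. Mmp14 (MT1-MMP) sits in the membrane and activates the precursor of Mmp2, which it holds through Timp2. Next in order were Mmp11 (stromelysin 3) with 621, Adamts1 with 443, Mmp15 with 438, Timp1 with 367 and Timp3 with 341 per kb. Mmp2 was the most abundant member per kb in both groups, with 2389 in control and 2446 in mutant pools, whereas the other gelatinase, Mmp9, had 4.41 per kb, or 0.0963% of the MMP sum. The ADAMTS genes were led by Adamts1, followed by Adamts10 with 262, Adamts7 with 212 and Adamts15 with 175 per kb. The fourth inhibitor, Timp4, had 0.70 per kb.

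**Figure D2:**
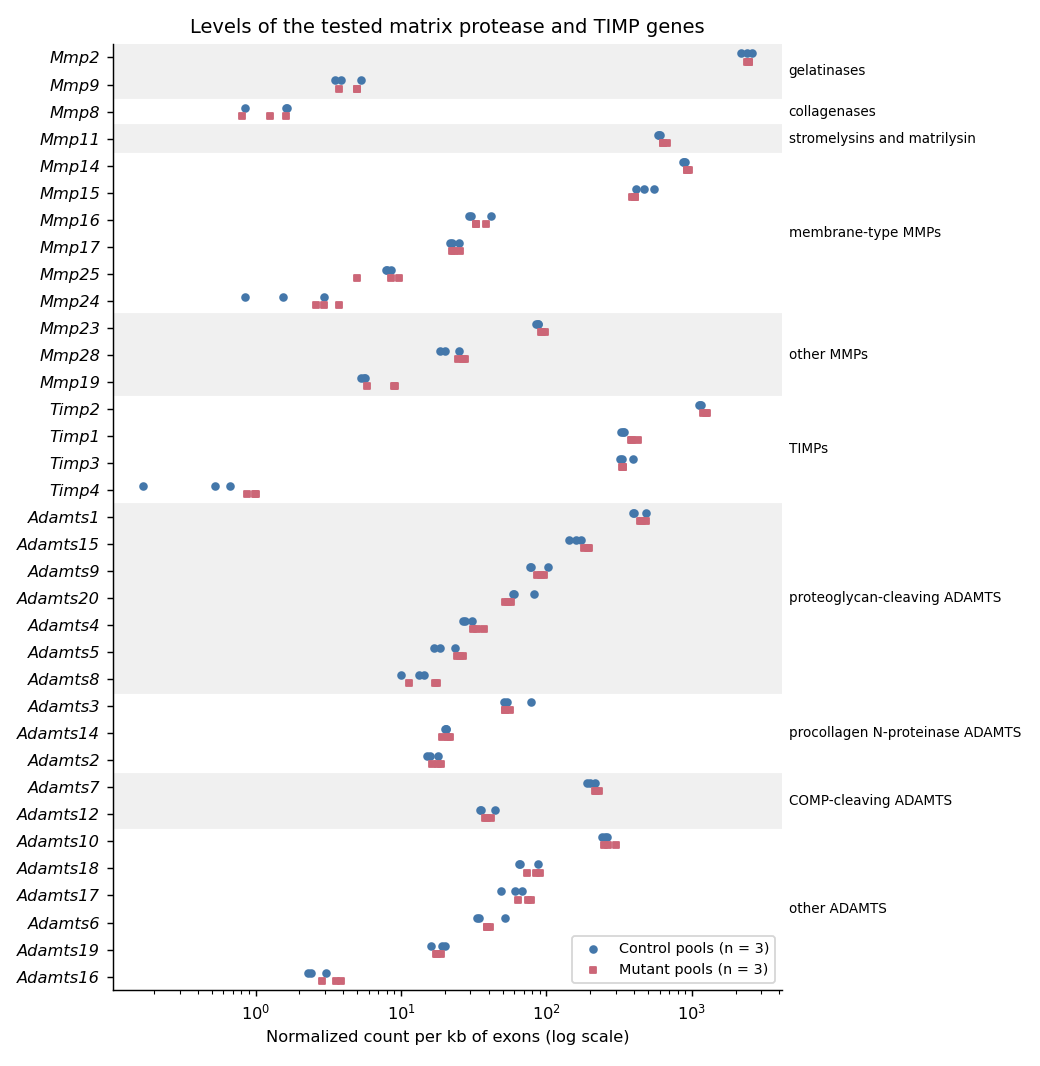
Normalized count per kb of exons on a log scale (horizontal axis) in each of 3 control pools (circles) and 3 mutant pools (squares) for the 35 tested genes, grouped by role. Levels ran from 0.70 per kb on average for Timp4 to 2417 for Mmp2, and for most genes the mutant and control pools lay close together.

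No member passed the threshold between mutant and control lungs, and most of them were slightly higher in mutant pools. At a limma adjusted p under 0.05, 0 of the 35 tested members were called, where 0.501% of all 17168 tested genes were called. At an unadjusted p under 0.05, 7 members were higher (20%, against 6.67% of all tested genes) and 2 were lower (5.71%, against 6.89%). All 3 mutant pools lay above all 3 control pools for 11 members (31.4%, against 9.77% of all tested genes) and under them for 2 (5.71%, against 10.5%). The log2 fold change was above 0 for 28 of 35 members (80%, against 49.5% of all tested genes), but for 13 of 35 when the pools were scaled to the same mean of the 20 mesenchyme markers. The median log2 fold change was 0.11 over the members and -0.0021 over all tested genes, and that scaling moved these medians to -0.016 and -0.13, a distance of 0.12 in both cases. Any fold change between 0 and about 0.13 therefore turns negative under that scaling by construction, whichever gene it belongs to. By family the median log2 fold change was 0.079 for 13 MMP genes, 0.18 for 4 TIMP genes and 0.12 for 18 ADAMTS genes. Marker sums of other tissues differed in both directions. Besides those of the mesenchyme, 9 of 10 endothelial markers were higher (13069 to 14927 summed counts in control pools, 15114 to 15809 in mutant pools), 7 of 8 smooth muscle markers (7864 to 9526, then 10177 to 11169) and 8 of 9 mesothelial markers (8863 to 9370, then 10054 to 10628). Of the cardiac muscle markers 7 of 8 were lower (1006 to 1111, then 734 to 841), and of the neural markers 5 of 7 (2084 to 2252, then 1721 to 2228). None of these markers was at 0, and the part of tissue composition in the members' values was not tested. Without control pool 3, limma called 4 of 35 members, where 2.70% of all tested genes were called. On the reads recovered for the same 5 pools, edgeR called 5 of 33 members (3.68% of all genes it tested), and DESeq2 called 3 of the 29 members with an adjusted p (3.26% of all such genes). At an unadjusted p under 0.05 in these 5 pools, limma had 14 members higher and 1 lower (8.33% and 8.52% of all tested genes). By the same threshold edgeR had 13 higher and 1 lower (8.86% and 9.89%), and DESeq2 had 7 higher and 1 lower of 39 (4.06% and 4.81%).

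**Figure D3:**
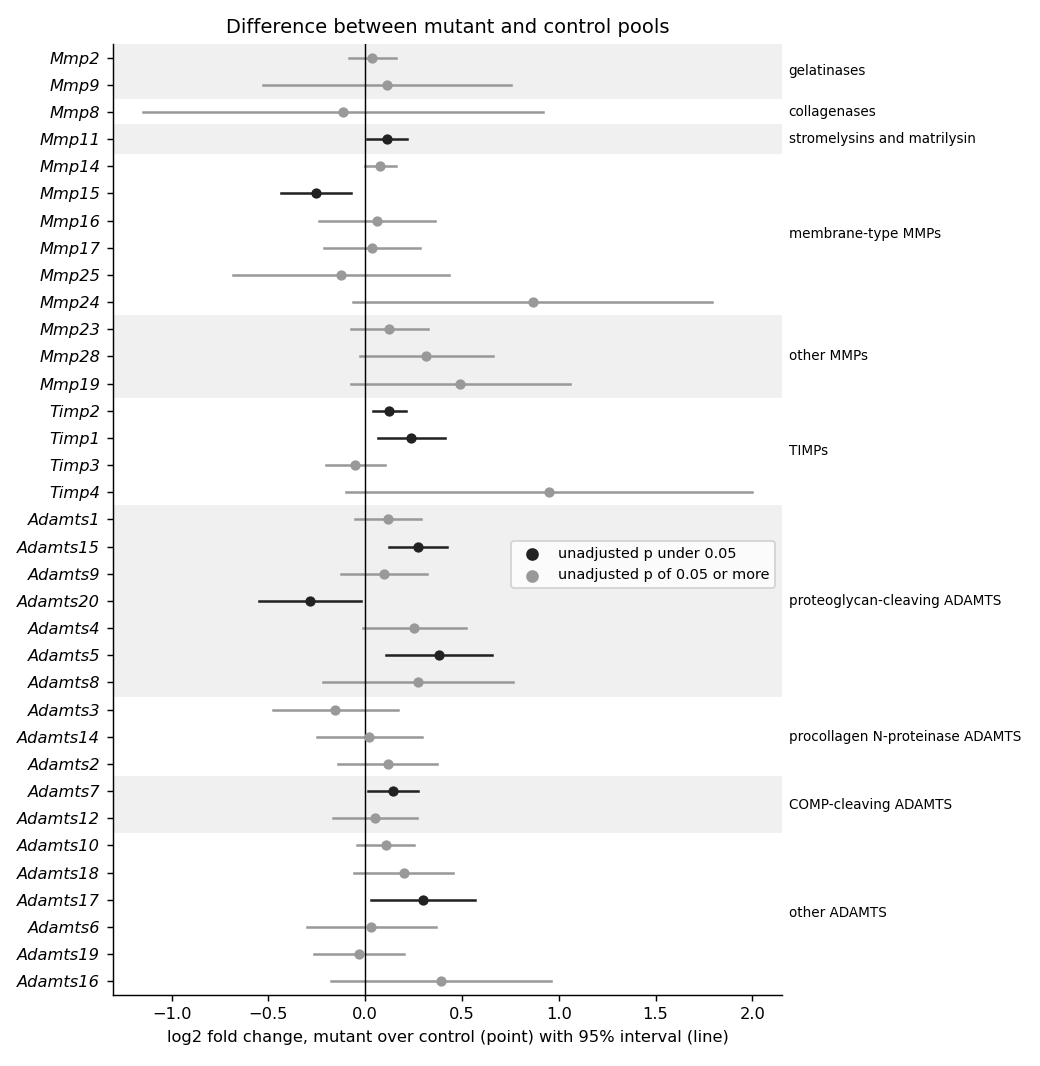
Log2 fold change of mutant over control pools on the log2(normalized count + 1) scale with its 95% interval from limma, for the 35 tested genes grouped by role, in black at an unadjusted p under 0.05. Of 35 points, 28 lie above 0 as the values were deposited (80%, against 49.5% of all tested genes). After scaling to mesenchyme markers 13 do, where the median was -0.016 over the members and -0.13 over all tested genes.

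Mmp15 (MT2-MMP), a second membrane-bound protease, was the member most clearly lower in mutant lungs. Its normalized counts were 2548, 2944 and 2242 in control pools against 2182, 2079 and 2184 in mutant pools. All mutant pools were under all control pools, by a narrow margin against control pool 3. The log2 fold change was -0.25 (standard error, SE, 0.082, adjusted p = 0.206 by limma). Without control pool 3 it was -0.35 with an adjusted p of 0.00709, in a fit that called 2.70% of all tested genes. Without control pool 2, the highest control, it was -0.15 with a limma adjusted p of 0.2485, in a fit that called 0.973%. The epithelial marker sum was also lower in mutant pools, and among control pools both Mmp15 and that sum were highest in pool 2 and lowest in pool 3. In bulk RNA, fewer cells of a type and less RNA per cell cannot be told apart, and the part of the epithelial share in the Mmp15 values was not tested. After scaling to mesenchyme markers Mmp15 was at -0.39 (adjusted p = 0.0338), against -0.13 for the median gene, and 10.2% of all tested genes were called lower in that fit.

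Of the other membrane-type genes, Mmp14, Mmp16 and Mmp17 differed little. Mmp14 had 5271, 5183 and 5329 in control pools against 5493, 5482 and 5693 in mutant pools. The mutant pools were all higher, with a log2 fold change of 0.079 (95% interval -0.0033 to 0.16, adjusted p = 0.387 by limma), and at -0.054 after scaling to mesenchyme markers it was still above the median gene, at -0.13. Mmp16 and Mmp17 had log2 fold changes of 0.060 and 0.034, with overlapping groups. Mmp25 and Mmp24 had means of 42 and 11.4 counts, overlapping groups and wide intervals. The log2 fold change was -0.12 for Mmp25 (95% interval -0.68 to 0.43) and 0.86 for Mmp24 (95% interval -0.063 to 1.79, limma adjusted p = 0.400). Reads of Mmp24 may be mixed with those of BC029722, which shares 13.6% of its exon bases on the opposite strand. Whether reads were counted by strand is not given in the sources used here.

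Of the gelatinases, Mmp2 had 8115, 8676 and 7366 in control pools against 8266, 8339 and 8130 in mutant pools. The mutant pools lay within the range of the control pools, and the log2 fold change was 0.037 (95% interval -0.085 to 0.16, adjusted p = 0.816 by limma), which turned to -0.025 without control pool 3. Mmp9, known from macrophages, neutrophils and osteoclasts, had 12.4 to 18.9 in control pools against 13.3 to 17.7 in mutant pools. Mmp8, the only tested collagenase, had 2.07 to 3.98 and 1.96 to 3.93. At such counts no difference was detectable.

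Mmp11, which furin activates inside the cell and which mesenchymal cells are known to make, had 1678, 1633 and 1654 in control pools against 1878, 1754 and 1747 in mutant pools. All mutant pools were higher, with a log2 fold change of 0.11 (SE 0.047, adjusted p = 0.314 by limma). After scaling to mesenchyme markers it was -0.017, against -0.13 for the median gene. Mmp11 shares 5.6% of its exon bases with Chchd10 on the opposite strand. Mmp23, a protease without the usual hemopexin domain, had 198 to 206 in control pools against 215 to 229.9 in mutant pools, at a log2 fold change of 0.12 (adjusted p = 0.586). Mmp19 had 18.7, 19.6 and 19.9 in control pools against 31.7, 32.4 and 20.6 in mutant pools, and shares 22.3% of its exon bases with the much more abundant Tmem198b on the opposite strand, so this difference (0.49, adjusted p = 0.429) is uncertain. Mmp28 (epilysin), the remaining tested MMP, was at 0.32 with overlapping groups (adjusted p = 0.404), and 12% of its exon bases are shared with 1700020L24Rik on the opposite strand.

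Among the inhibitors, Timp1, Timp2 and, at a handful of reads per pool, Timp4 were higher in every mutant pool, and Timp3 was not. Timp2 had 4368, 4508 and 4423 in control pools against 4890.15, 4675 and 4947 in mutant pools. The spread within each group was small beside the gap, and the log2 fold change was 0.13 (SE 0.039, adjusted p = 0.194 by limma). It was -0.0066 after scaling to mesenchyme markers, while the median gene was at -0.13. Timp1 had 304, 301 and 291 in control pools against 344, 376 and 339 in mutant pools, at a log2 fold change of 0.24 (SE 0.079, adjusted p = 0.214). Timp1 lies on the X chromosome at chrX:20870166-20874735, and control pool 3, which had the most Xist, had the lowest Timp1 of the 6 pools. Control pool 1, with the next most Xist, had the highest Timp1 of the control pools. The part of the X chromosome in that difference was not tested.

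Timp3, which stays bound to the matrix and also inhibits ADAM and ADAMTS proteases, had 2682, 2616 and 3195 in control pools against 2746, 2696 and 2725 in mutant pools. Control pool 3 was the highest, and the log2 fold change was -0.051 (95% interval -0.20 to 0.10, adjusted p = 0.792 by limma) with it and 0.039 without it. Timp3 shares 21.3% of its exon bases with Syn3 on the opposite strand, so its count is uncertain if strand was not used. Timp4 had 3.93, 3.10 and 0.99 in control pools against 5.11, 5.88 and 5.89 in mutant pools. These are a handful of reads per pool, and the log2 fold change of 0.95 had an interval of -0.099 to 2.0.

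Since Mmp14, Timp2 and Mmp2 act together, their log2 ratios within each pool were compared. The size factor of a pool cancels in such a ratio. The log2 ratio of Mmp2 to Timp2 was 0.89, 0.94 and 0.74 in control pools against 0.76, 0.83 and 0.72 in mutant pools. The means differed by -0.088 with overlapping groups (two-sided exact permutation test, p = 0.3, adjusted over 3 ratios 0.45). The log2 ratio of Mmp14 to Timp2 differed by -0.047 (exact p = 0.3, adjusted 0.45) and that of Mmp2 to Mmp14 by -0.041 (exact p = 0.7, adjusted 0.7). With 3 pools against 3 the smallest p this test can give is 0.1. Summed per kb, TIMP over MMP counts were 0.38 to 0.43 in control pools against 0.42 to 0.43 in mutant pools.

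**Figure D4:**
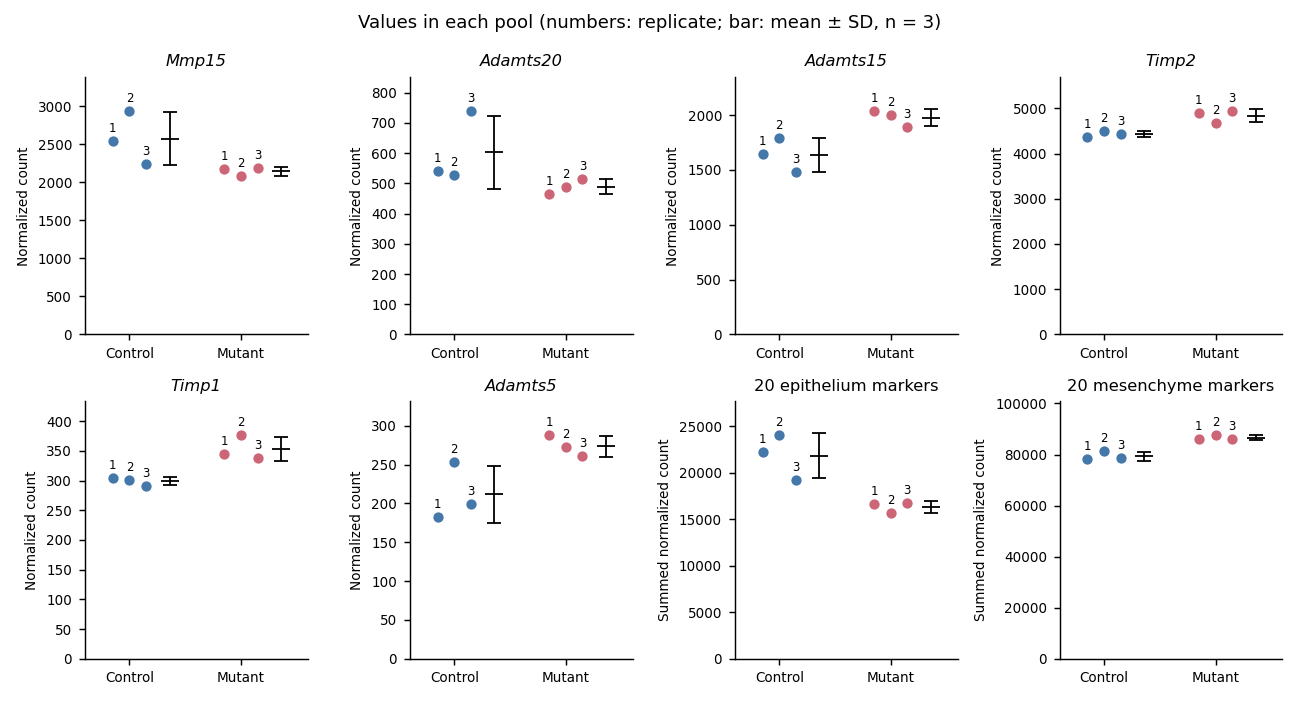
Normalized counts in each control and mutant pool for 6 members, and summed normalized counts of the 20 epithelium and 20 mesenchyme markers, on axes that start at 0, with the replicate number above each point and the mean ± SD (n = 3) as bars. Mmp15 and the epithelial sum are lower in all mutant pools, with 2182, 2079 and 2184 counts of Mmp15, and Timp1, Timp2, Adamts15, Adamts5 and the mesenchymal sum are higher.

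The ADAMTS proteases that cut versican and aggrecan held 3 of the 9 members at an unadjusted p under 0.05. Of these, 2 were higher and 1 was lower, where 6.67% and 6.89% of all tested genes were. Of the 7 genes, all of them tested, 6 had a log2 fold change above 0 and 1 under it, 3 lay wholly above and 1 wholly under the control pools (against 9.77% and 10.5% of all tested genes), and 0 were called. Adamts15, at chr9:30899155-30922452, had 1649, 1790.35 and 1481 in control pools against 2040.5, 1999 and 1890.4 in mutant pools. Every mutant pool was higher than every control pool, and with a log2 fold change of 0.27 (SE 0.067, adjusted p = 0.124 by limma) it had the lowest p of the 35 tested members. Without control pool 2, the highest control, the log2 fold change was 0.34 and the adjusted p 0.0394, in a fit that called 0.973% of all tested genes. Without control pool 3, the lowest control, the log2 fold change of Adamts15 was 0.20 (limma adjusted p = 0.0577). Leaving out any other single pool gave limma adjusted p from 0.331 to 0.360. Adamts5, the main aggrecanase of mouse cartilage, had 183, 253 and 199.8 in control pools against 288, 273 and 261 in mutant pools. Its groups did not overlap either, and the log2 fold change was 0.38 (SE 0.12, adjusted p = 0.205). Adamts4 had 129 to 149.1 in control pools against 149.2 to 179.6 in mutant pools, at a log2 fold change of 0.25 (adjusted p = 0.392).

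Adamts20, known from pigment cell spread and palate closure, went the other way. It had 540.2, 527 and 741 in control pools against 464, 487 and 514 in mutant pools. All mutant pools were lower, and control pool 3 was far above the other pools. The log2 fold change was -0.29 (SE 0.12, adjusted p = 0.326 by limma) with that pool and -0.13 without it. Adamts1, the most abundant ADAMTS per kb, had 2118, 2082 and 2574 in control pools against 2569, 2340.4 and 2409.65 in mutant pools. Here control pool 3 was the highest of the 6 pools, and the log2 fold change was 0.12 (adjusted p = 0.542) with it and 0.22 (adjusted p = 0.0295) without it. Adamts1 and Adamts5 are neighbours on chromosome 16, 53.1 kb apart, and Adamts15 and Adamts8 are neighbours on chromosome 9, 20.1 kb apart.

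The other ADAMTS genes included 1 member at an unadjusted p under 0.05 in each of the COMP-cleaving and remaining groups. Each was higher in mutant pools, as were 6.67% of all tested genes at that threshold. Adamts7, which cuts the cartilage protein COMP, had 1197, 1356 and 1243 in control pools against 1448, 1359 and 1386 in mutant pools. The groups were separated by a narrow margin, and the log2 fold change was 0.14 (SE 0.057, adjusted p = 0.306 by limma). Adamts17, linked like Adamts10 to fibrillin microfibrils, had 475, 526 and 378 in control pools against 612, 494 and 581 in mutant pools. Its groups overlapped, and the log2 fold change was 0.30 (SE 0.12, adjusted p = 0.319). Without control pool 3, its lowest pool, the log2 fold change of Adamts17 was 0.16. Adamts10 had 2004 to 2145 in control pools against 2048 to 2485 in mutant pools, at a log2 fold change of 0.11 (adjusted p = 0.527). The procollagen N-proteinases, which trim the amino end of fibrillar procollagens, were Adamts2, Adamts3 and Adamts14, with log2 fold changes of 0.12, -0.16 and 0.022. Adamts3, the most abundant of them, had 289, 276 and 423 in control pools against 306, 282 and 283 in mutant pools, and its fold change turned to 0.039 without control pool 3. Adamts6, Adamts12, Adamts16 and Adamts19 had overlapping groups, with log2 fold changes from -0.032 to 0.39 and adjusted p from 0.539 to 0.947. Adamts13, the protease of von Willebrand factor, had 0.98 in a single mutant pool and 0 in the others.

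Leaving out control pool 3 changed the calls of 4 members, leaving out control pool 2 that of Adamts15, and leaving out any other single pool changed none. Against the mean of control pools 1 and 2, control pool 3 was higher on the log2 scale by 0.62 for Adamts6, 0.58 for Adamts3, 0.49 for Mmp16, 0.47 for Adamts20, 0.42 for Adamts18 and 0.41 for Adamts9. It was lower, at -0.40 for Adamts17, -0.29 for Mmp15, -0.21 for Adamts15 and -0.19 for Mmp2. Among the 35 tested members it was the highest pool for 10 and the lowest for 6 (45.7% in all, against 49.7% of all tested genes). Control pool 2 was at an extreme for more members, as the highest for 2 and the lowest for 15 (42.9% lowest, against 18.5% of all tested genes). Without control pool 3, limma called 464 of all tested genes and 4 members. The 4 were Mmp15 and Adamts1 (above), Adamts18 at 0.34 (adjusted p = 0.0352) and Adamts9 at 0.23 (adjusted p = 0.0404). Adamts18 had 661, 666 and 891 in control pools against 922, 752 and 856 in mutant pools, and Adamts9 had 1183, 1158 and 1554 in control pools against 1447, 1297 and 1388 in mutant pools. Control pool 3 lay within the range of the mutant pools for Adamts18 and above all mutant pools for Adamts9 and Adamts1, and for all 3 genes it was above the other control pools. Adamts18 and Adamts9 are named here after their values were seen, and what sets control pool 3 apart was not tested.

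**Figure D5:**
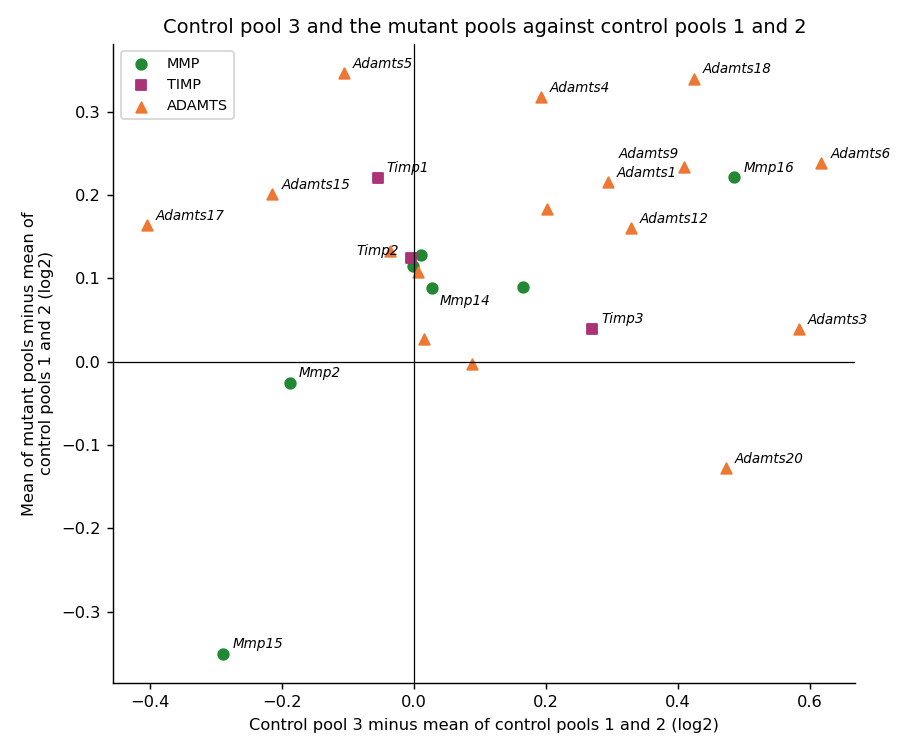
Log2 difference of control pool 3 (horizontal axis) and of the mean of the mutant pools (vertical axis) from the mean of control pools 1 and 2, for tested members with a mean of at least 100, with MMP, TIMP and ADAMTS genes as circles, squares and triangles. Adamts18, Adamts9, Adamts1 and Mmp16 are higher in both, Mmp15 is lower in both, at -0.29 and -0.35, and Adamts20 is higher in control pool 3 and lower in the mutant pools; both axes share the values of control pools 1 and 2.

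Of 37 partner genes of these proteases, all tested, 0 were called by limma, with 3 higher and 1 lower at an unadjusted p under 0.05 (against 6.67% and 6.89% of all tested genes) and a median log2 fold change of 0.036. Reck, a membrane-anchored inhibitor of MMPs, had 1574, 1624 and 1639 in control pools against 1719, 1771 and 1707 in mutant pools. All mutant pools were higher, with a log2 fold change of 0.10 (adjusted p = 0.336 by limma) that became -0.029 after scaling to mesenchyme markers, against -0.13 for the median gene. Spock2, a matrix proteoglycan of the testican family, had 229.8, 227 and 249 in control pools against 312, 277 and 284 in mutant pools, at a log2 fold change of 0.30 (adjusted p = 0.176). A2m, the broad protease trap alpha-2-macroglobulin, was lower, with 289, 271 and 398 in control pools against 251, 207 and 247 in mutant pools, at a log2 fold change of -0.42 (adjusted p = 0.230). Without control pool 3, its highest pool, the log2 fold change of A2m was -0.25. Papln (papilin), related to ADAMTS proteases but without a protease domain, had 25.5 to 33.1 in control pools against 31.7 to 68.6 in mutant pools, at a log2 fold change of 0.77 (adjusted p = 0.259). The activating proteases, Furin and the plasminogen activators among them, had 0 genes at an unadjusted p under 0.05 of 7, and the substrates 0 of 6. Versican (Vcan), the main substrate on the list, had 13358 to 16801 in control pools against 13722 to 13921 in mutant pools, and its log2 fold change was -0.10 (adjusted p = 0.569). Adam10, a shedding protease that Timp3 and Reck can inhibit, had a log2 fold change of 0.075 (adjusted p = 0.399), and all 3 mutant pools were above the controls.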

How the data were processed

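RNA of 3 control and 3 mutant lung pools at E11.5 was analysed, grouped by the labels. The authors deposited 1 table of signal values, which are normalized counts (reads scaled by the size factor of each library). The submitters' processing notes name Trim Galore, HISAT2, featureCounts, DESeq2 and mm10, and versions are not given in the sources used here. The authors' deposited log2 fold changes with their standard errors, test statistic (a score), p-values and mean column hold their own comparison and were not used.

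Genes that reached a value of 1 in 3 or more pools (17168 of 23420) were tested with limma 3.58.1 in R 4.3.3 (lmFit, eBayes with trend) on log2(normalized count + 1), which understates the change of low genes, with Benjamini-Hochberg adjustment over all tested genes and a threshold of 0.05. For single ratios the test was an exact permutation test, two-sided. All values of the 6 libraries were whole multiples of a step (tolerance 0.01), which gave 20197642 to 21276090 reads. Steps near 1 were not accepted as recovered reads, which left out control pool 3 (step 0.994, although all its values were whole multiples of it), so edgeR 4.0.16 (quasi-likelihood) and DESeq2 1.42.0 were run on the reads of the other 5 pools. The scripts were tested on simulated data. Other alternatives were limma without the trend, upper-quartile (75th percentile) and mesenchyme marker scaling, no filter, at least 10 in every pool, a pseudocount of 0.1, a replicate block and each pool left out.

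Coordinates and exon lengths are those of GENCODE M21 (GRCm38), in which all 46 members were found, and promoters are those of RefSeq (GRCm38.p6). The members and lists were chosen with earlier results of these data known. Named are members at an adjusted or unadjusted p under 0.05, the highest mean in each of 10 role groups, all TIMPs, Mmp2, Mmp9, Mmp14 and untested members, the 5 partner genes with the lowest p, and others as marked. Vcan, Mmp16, Mmp17, Mmp19, Mmp24, Mmp25, Mmp28, Adamts2, Adamts4, Adamts6, Adamts8, Adamts12, Adamts14, Adamts16 and Adamts19 are named beyond that rule, after their values were seen. For the 10 marker lists, 7 of 20 epithelial genes were called lower, 1 mesothelial (Wt1) and 1 cartilage gene (Col9a2) higher, and 0 of the mesenchymal, smooth muscle, endothelial, leukocyte, neural, cardiac and erythroid genes were called.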

Additional observations from a re-analysis of the deposited data

How the results depend on the processing

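In the limma fit of 6 pools 0 members and 0 partners were called. The edgeR and DESeq2 fits changed both the tool and the pools, as they leave out control pool 3, and limma without that pool called 3 members higher and 1 lower. Calls of members were 2 higher and 1 lower with DESeq2 and 4 higher and 1 lower with edgeR on 5 pools (Mmp15, Adamts1 and Adamts18 with both, and Adamts15 and Adamts9 with edgeR), and 2 of 35 lower (Mmp15 and Adamts20) after mesenchyme marker scaling, which called 10.2% of all tested genes lower. Leaving out 1 pool at a time gave 0 to 3 members called higher and 0 to 1 lower, with the highest counts without control pool 3. At an unadjusted p under 0.05, higher members numbered 13 with edgeR on 5 pools, 14 with limma on the same pools, 0 after mesenchyme scaling and 5 to 14 with 1 pool left out, against 7. Lower members numbered 1 with DESeq2 or edgeR, 0 without the trend or without a filter and 1 to 2 with 1 pool left out, against 2. After mesenchyme scaling, which moved the median tested gene to -0.13, 1 member lay wholly above the controls and 4 wholly under them, against 11 and 2. The share of all tested genes was not counted under that scaling, so the change in these counts is not particular to the members.

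Partners called higher were 1 with DESeq2, 1 with edgeR and 0 to 1 with 1 pool left out, and 3 were called lower after mesenchyme scaling. At an unadjusted p under 0.05, higher partners numbered 5 with DESeq2, 7 with edgeR, 1 after mesenchyme scaling and 1 to 7 with 1 pool left out, against 3. Lower partners numbered 0 with DESeq2, without the trend or without a filter, 9 after mesenchyme scaling, 2 with the replicate block and 1 to 3 with 1 pool left out, against 1.

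Mesenchyme scaling moved the median gene to -0.13 and turned the log2 fold changes of Adamts1 (-0.015), Adamts10 (-0.026), Adamts9 (-0.035), Mmp11 (-0.017), Mmp14 (-0.054), Mmp2 (-0.095), Mmp23 (-0.0074), Mmp9 (-0.011), Timp2 (-0.0066), Reck (-0.029) and Adam10 (-0.057). Leaving out control pool 3 turned Adamts3, Mmp2 and Timp3 with DESeq2 (0.039, -0.026 and 0.039), edgeR (0.038, -0.027 and 0.038) and limma (0.039, -0.025 and 0.039). With 1 pool left out, log2 fold changes ran from -0.27 to 0.039 for Adamts3, -0.025 to 0.093 for Mmp2, -0.34 to 0.084 for Mmp8, -0.0050 to 0.28 for Mmp9 and -0.10 to 0.039 for Timp3, and the difference in the log2 ratio of Mmp2 to Mmp14 ran from -0.11 to 0.025. The sign changes under mesenchyme scaling follow from its shift of all genes. What sets control pool 3 apart was not tested, nor was the cause of the other changes. Over all settings, 1 to 1771 of all tested genes were called. Same-numbered pools did not pair (correlations -0.019, 0.10 and 0.031), and with the replicate block 7 members were higher and 2 lower. Members at or under a few reads per pool cannot show a difference at this depth.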
